A study of Mus musculus with 8 samples.

Results

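At room temperature, brown adipose tissue (brown fat) was compared with quadriceps muscle in C57BL/6J mice, across all probes of an Illumina bead array that were above background. The comparison rests on 4 of the 8 arrays of the series, 2 brown fat and 2 muscle, picked by the tissue and the housing temperature in their labels. The other 4 arrays hold the same tissues from mice placed at 4 °C for 4 h without food or bedding, and were used to repeat the comparison. All mice ate chow, and no genetic change and no agent other than temperature is named for any group. How the mice at room temperature were handled before sampling, their age and sex, the site of the brown fat, and whether the 2 samples of a tissue, or the 2 tissues, came from the same mice are not stated in the labels. The p-values therefore measure only how far these samples spread, and that spread may be technical.

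Brown fat makes heat. Its mitochondria oxidise fatty acids and glucose, and uncoupling protein Ucp1 lets protons back across the inner membrane without ATP being made. Quadriceps is a mostly fast-twitch muscle whose ATP drives myosin and the calcium pumps, and it draws on glycogen and phosphocreatine for rapid work. Both tissues descend from mesoderm, and brown adipocytes share embryonic precursors with skeletal muscle.

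Each array carried 24607 probes, of which 10618 to 11280 were above background at room temperature (detection p under 0.05). Probes above background on both arrays of at least 1 tissue were tested, which gave 11610 probes and, with the brightest probe per gene, 9710 genes, of which 8354 have a symbol. A gene above background in only 1 tissue entered the test through that tissue, so its direction was largely set by this filter. Values below are log2 signals after background correction and quantile normalization, each tissue's replicate 1 first, and signals under about 5.51 to 5.63 cannot be told from background. A difference is the brown fat mean minus the muscle mean on the log2 scale with its standard error (SE), so 1 is a 2-fold and 3 an 8-fold higher signal in brown fat, and minus signs mark genes higher in muscle. The 2 brown fat arrays correlated at 0.9925 across genes and the 2 muscle arrays at 0.9955.

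The labelled tissues were checked against their defining markers, and each carried transcripts of the other kind of cell. The log2 signals of Ucp1 were 14.42 and 14.46 in brown fat and 6.15 and 5.87 in muscle. Those of Cidea, a lipid droplet protein of brown adipocytes, were 14.70 and 14.70 in brown fat and 5.72 and 5.83 in muscle. Both genes were thus close to the background limit in muscle, while general adipocyte genes were well above it there, with Adipoq (adiponectin, an adipocyte hormone) at 14.03 and 13.75 in brown fat and 9.82 and 10.38 in muscle and Cidec, a droplet-fusing protein, at 14.16 and 13.78 in brown fat and 8.63 and 8.90 in muscle.

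Muscle transcripts were bright in both brown fat samples. Muscle creatine kinase Ckm was at 10.82 and 11.26 in brown fat and 14.59 and 14.71 in muscle, and the fast troponin C gene Tnnc2 at 12.51 and 12.88 in brown fat and 14.61 and 14.65 in muscle. Of the 306 genes over 8-fold higher in muscle, 215 were above background on both brown fat arrays. When all 8 arrays were normalized together, cold brown fat replicate 1 had Ckm at 5.23 and Tnnc2 at 6.25, while cold brown fat replicate 2 had them at 11.34 and 12.98. Both transcripts were therefore high in 3 of the 4 brown fat samples and near background in the other one. Every muscle gene described below was measured against brown fat samples that carry these transcripts, and their part in each difference was not tested. Values for cold brown fat replicate 1 are given beside the results they touch. On these arrays fewer cells of a type and less RNA per cell cannot be told apart.

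**Figure D1:**
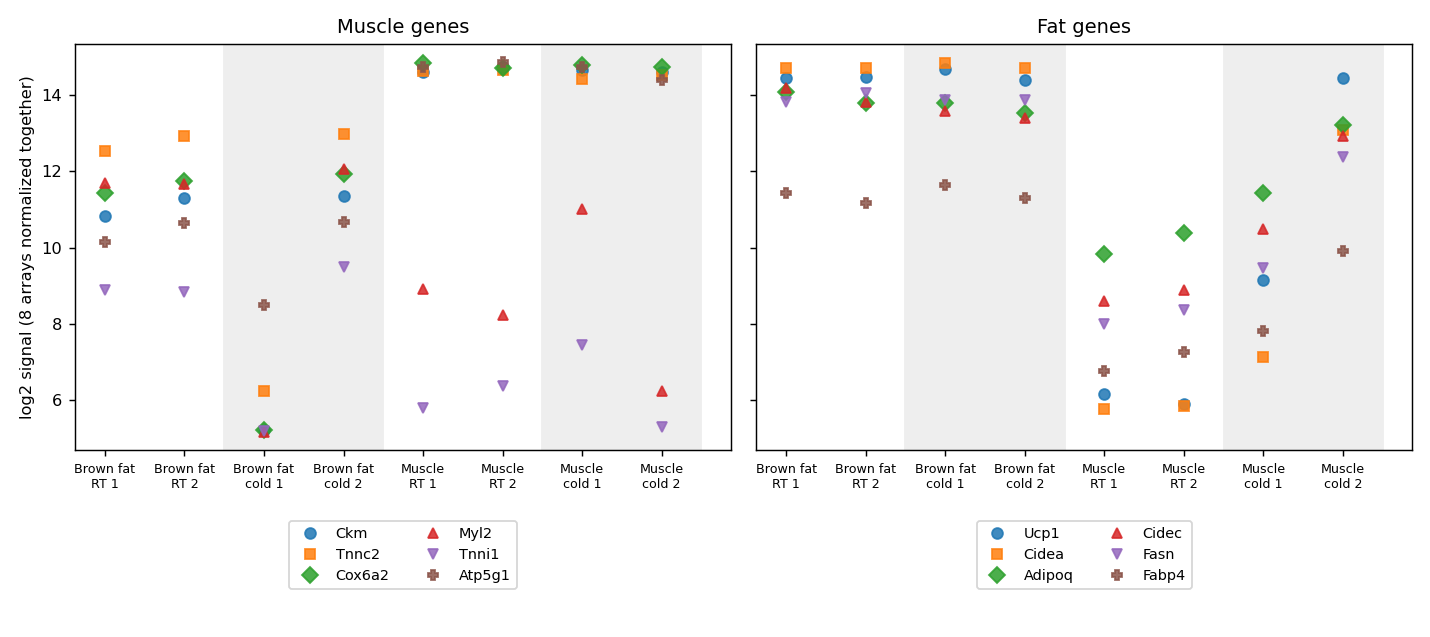
Log2 signals of 6 muscle genes (left) and 6 fat genes (right) on the 8 arrays normalized together, 1 marker per gene and array, with the cold arrays shaded. Ckm, Tnnc2 and Cox6a2 were bright on 3 of the 4 brown fat arrays and at 5.23, 6.25 and 5.22 on cold brown fat replicate 1, while Ucp1 and Cidea were near background on both muscle arrays at room temperature and at 14.45 and 13.09 on muscle cold replicate 2.

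The tissues differed in most of the genes tested. At an adjusted p under 0.05, 3392 genes were higher in brown fat (34.9% of those tested) and 3449 were higher in muscle (35.5%), which makes 6841 genes (70.5%). The difference exceeded 2-fold for 1696 genes higher in brown fat (17.5%) and 1590 higher in muscle (16.4%), and 8-fold for 258 and 306. The median difference over all genes was -0.00854. A gene past the threshold is therefore the usual case here, and the gene lists below are described by the size of their differences beside that median. Under a test against a 2-fold difference in place of 0, 1068 genes were higher in brown fat and 994 in muscle.

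**Figure D2:**
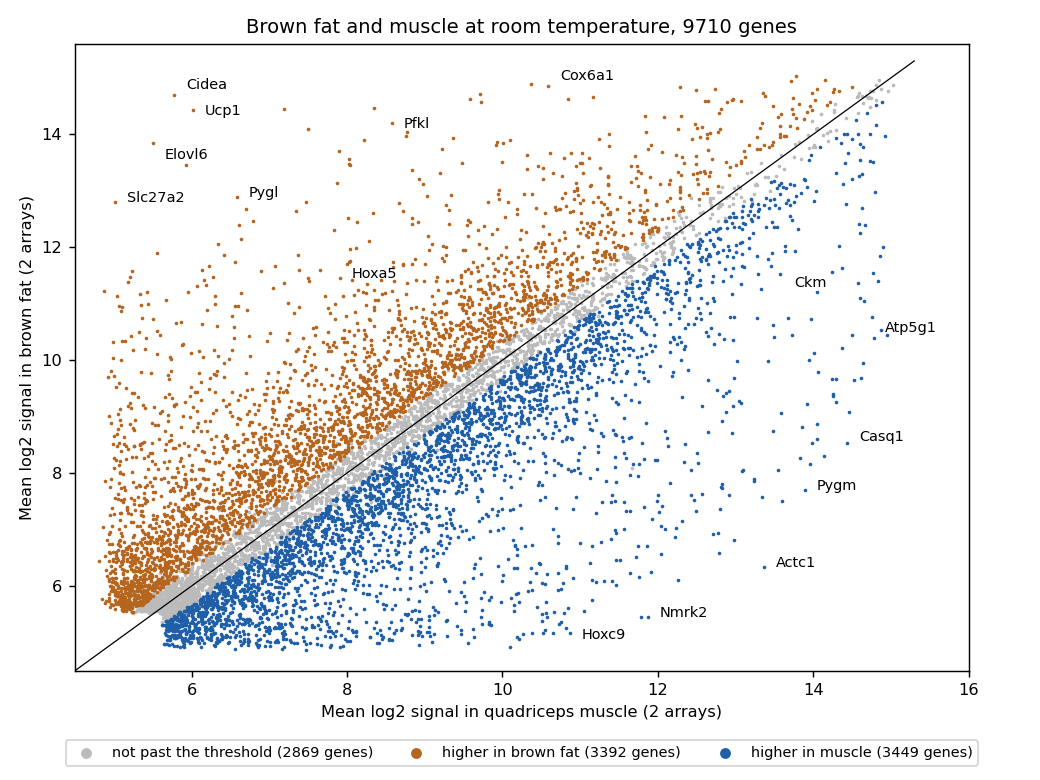
Mean log2 signal of each of 9710 genes in quadriceps muscle (x axis) and brown fat (y axis), means of 2 arrays. Orange and blue points are genes past the threshold and grey points are not, and the line marks equal signal. Cidea and Ucp1 lie at the upper left, near background in muscle, and Hoxc9 and Nmrk2 lie at the lower edge, near background in brown fat.

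The genes with the largest differences towards brown fat included several of heat production and of making and storing fat. Cidea differed by 8.92 ± 0.11 (adjusted p = 6.35e-07) and Ucp1 by 8.43 ± 0.13 (adjusted p = 7.17e-07). Elovl6, which lengthens newly made fatty acids, followed, with log2 signals of 14.02 and 13.69 in brown fat and 5.45 and 5.55 in muscle. It was not above background in muscle, so its signal was at least 303-fold higher in brown fat. Slc27a2, a fatty acid transporter and acyl-CoA synthetase, was at 12.76 and 12.84 in brown fat and 4.91 and 5.12 in muscle and at least 146-fold higher. In all 4 genes the groups lay far apart, by many times the gap between replicates.

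Others among the 25 largest differences ran the same way. Agpat2, an acyltransferase of triglyceride synthesis, differed by 7.27 ± 0.22, and Apoc1, an apolipoprotein, by 6.60 ± 0.21. Pygl, the liver form of glycogen phosphorylase, differed by 6.31 ± 0.13, and Ppp1r3b, which targets a phosphatase to glycogen, was at least 40.9-fold higher. Nat8l, which makes N-acetylaspartate, was at least 55-fold higher. The proton channel gene Otop1 was at least 49.1-fold and the potassium channel gene Kcnk3 at least 46.2-fold higher. Kng1, a kininogen, differed by 7.53 ± 0.15, but its near-identical copy Kng2 may share the probe. The remaining genes in this set included Thrsp (6.11), a lipogenic nuclear protein, Pck1 (at least 47-fold), an enzyme that supplies glycerol for triglycerides, Letmd1 (5.81), a mitochondrial inner membrane protein, Mrap (5.71), the partner of the ACTH receptor, Ffar4 (at least 48.3-fold), a receptor for long-chain fatty acids, and the secreted matrix protein gene Ltbp2 (6.33). The acute-phase protein gene Orm1 was at 12.63 and 12.71 in brown fat and 6.29 and 7.10 in muscle. As for Orm1, muscle replicate 2 was above muscle replicate 1 for Agpat2, Apoc1 and Mrap, while over the 258 genes more than 8-fold higher in brown fat the median gap between these replicates was 0.09.

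Of 22 genes listed as thermogenic effectors, 19 were tested, 16 were higher in brown fat, none was higher in muscle, and their median difference was 3.08. Besides Ucp1, Cidea, Slc27a2, Otop1 and Kcnk3 these were Acot11, a thioesterase for long-chain acyl-CoA (difference 5.45 ± 0.12), and Elovl3, an elongase induced by cold (log2 signals of 10.32 and 9.29 in brown fat and 4.93 and 5.0 in muscle, at least 18.3-fold higher). Pdk4, which holds pyruvate dehydrogenase inactive, differed by 1.47 ± 0.18 and the muscle-enriched uncoupling protein gene Ucp3 by 1.22 ± 0.12. Cpt1b, the carnitine palmitoyltransferase of muscle and brown fat, differed by 0.70 ± 0.11. The 3 members that did not pass the threshold were Ppargc1a, Fabp3 and Cox8b. Ppargc1a, the coactivator that drives mitochondrial genes, was at 9.49 and 10.16 in brown fat and 9.31 and 9.28 in muscle (difference 0.53 ± 0.22, adjusted p = 0.0645). Without brown fat replicate 1 the difference was 0.88 and passed (adjusted p = 0.00384), and without replicate 2 it was 0.20 and did not. It also passed with a replicate block (adjusted p = 0.0254) and with a trended robust prior (adjusted p = 0.0449). Fabp3, the heart-type fatty acid binding protein, was at 14.64 and 14.71 in brown fat and 14.57 and 14.57 in muscle, and Cox8b, a subunit of cytochrome c oxidase, at 14.71 and 14.84 in brown fat and 14.72 and 14.74 in muscle. Fabp3 and Cox8b, which serve as markers of brown against white fat, were thus bright in both tissues. Whether a difference is compressed at such signals was not tested.

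The brown fat transcription factor list was mixed. Of 18 tested genes 11 were higher in brown fat, 3 were higher in muscle and the median difference was 0.99. Pparg, the master regulator of adipocytes, was at 12.77 and 12.85 in brown fat and 7.34 and 7.61 in muscle (difference 5.33 ± 0.13). Cebpa, its partner, was at least 29.6-fold higher in brown fat. Ppara (at least 7.39-fold), Ebf2 (2.82), Irf4 (3.47), Cebpb (2.04), Ppargc1b (1.96) and Zic1 (1.97) were also higher. The largest difference in the other direction was in Tbx15, a T-box factor, with log2 signals of 5.79 and 5.97 in brown fat and 10.29 and 10.11 in muscle (difference -4.33 ± 0.13). A second Tbx15 probe gave a smaller difference of -1.76. Prdm16, a zinc finger regulator of brown fat identity, was not above background on any of the 4 arrays with the probe used. Zbtb16, the zinc finger factor in the title of the series, was dim in both tissues at 6.22 and 5.66 in brown fat and 6.74 and 6.60 in muscle (difference -0.73 ± 0.19, adjusted p = 0.0135), a call lost without muscle replicate 1. Its difference was -1.12 and -0.44 without brown fat replicate 1 and 2.

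Genes of fat storage and synthesis were higher in brown fat with few exceptions. The general adipocyte list had 14 of 15 tested genes higher in brown fat and none higher in muscle, with a median difference of 4.59, the highest of the 40 lists. The droplet protein gene Plin1 was at 10.89 and 11.23 in brown fat and 5.69 and 5.65 in muscle (difference 5.39 ± 0.14). Fabp4, the adipocyte fatty acid binding protein, was at 11.40 and 11.15 in brown fat and 6.81 and 7.29 in muscle (difference 4.23 ± 0.19). The hormone-sensitive lipase gene Lipe differed by 4.84 ± 0.12, the glycerol channel gene Aqp7 by 4.59 ± 0.11 and Adipoq by 3.79 ± 0.20. The differences of this list are set against muscle samples that themselves held adipocyte transcripts, and the part of these in the result was not tested. The 1 member that did not pass was Gpd1, the cytosolic glycerol-3-phosphate dehydrogenase, which lay at 14.50 and 14.61 in brown fat and 14.62 and 14.66 in muscle. Whether a difference is compressed at signals this bright was not tested.

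All 14 tested genes of fatty acid synthesis were higher in brown fat (median 3.62). The difference was 5.68 ± 0.16 for fatty acid synthase Fasn, 4.86 ± 0.11 for ATP citrate lyase Acly, and 5.27 ± 0.31 for the mitochondrial citrate exporter Slc25a1. Acaca, the cytosolic acetyl-CoA carboxylase, differed by 5.01 ± 0.11, though a second, dimmer probe gave 0.27. Acacb, its mitochondrial counterpart, was dim and at least 2.49-fold higher. The desaturase genes Scd1 and Scd2 were bright in both tissues and differed less, by 2.29 ± 0.25 and 1.77 ± 0.23. Of 16 tested genes of triglyceride synthesis 12 were higher in brown fat (median 2.20), among them Dgat2 (4.52) and Dgat1 (4.28), the last enzymes of the pathway, and Bscl2 (2.79), which helps droplets form. The exception was Fitm1, a droplet-promoting membrane protein of muscle, with log2 signals of 5.23 and 5.39 in brown fat and 9.94 and 9.76 in muscle and a signal at least 20.2-fold higher in muscle.

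Lipolysis, lipid uptake and droplet genes were higher in brown fat in 21 of 23 tested genes (median 3.54). They included the droplet coats Plin2 (4.51) and Plin5 (3.53) and Angptl4 (5.78), a secreted inhibitor of lipoprotein lipase. The VLDL receptor gene Vldlr was the member higher in muscle, by -0.76. Beta-oxidation followed, with all 18 tested genes higher in brown fat and a median difference of 2.05, but with a narrower range than the storage genes. The acyl-CoA dehydrogenases Acadl and Acads differed by 3.34 ± 0.12 and 2.76 ± 0.13, the hydratase Echs1 by 2.57 ± 0.11, Etfdh, which passes electrons to ubiquinone, by 2.49 ± 0.11, and the trifunctional protein subunit gene Hadhb by 2.23 ± 0.11. Peroxisomal genes were higher in brown fat in 24 of 27 tested genes (median 1.24), led by the thiolase gene Acaa1b (5.15), the fatty acid carrier Abcd3 (2.90), catalase Cat (2.41) and the import factors Pex3 (2.39) and Pex5 (1.99).

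In the citric acid cycle 19 of 23 tested genes were higher in brown fat and 2 in muscle (median 1.21). The outlying member was Idh3b, a subunit of isocitrate dehydrogenase, at 13.88 and 13.99 in brown fat and 9.27 and 9.46 in muscle. Its difference of 4.57 ± 0.12 compared with 1.70 ± 0.13 for Idh3g, another subunit of the same enzyme, and Idh3a, the catalytic subunit, was at 12.82 and 12.67 in brown fat and 12.52 and 12.53 in muscle and did not pass (adjusted p = 0.128). Other members higher in brown fat were Pcx, pyruvate carboxylase (2.36), and Dlst, of the oxoglutarate dehydrogenase complex (1.61). Pdp1, the phosphatase that activates pyruvate dehydrogenase, was higher in muscle by -3.59 with log2 signals of 6.43 and 6.52 in brown fat and 9.89 and 10.24 in muscle. Branched-chain amino acid breakdown had 17 of 19 tested genes higher in brown fat (median 1.16). These included both subunits of the branched-chain dehydrogenase, Bckdha (1.64) and Bckdhb (1.56), and both of propionyl-CoA carboxylase, Pcca (2.41) and Pccb (2.10).

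**Figure D3:**
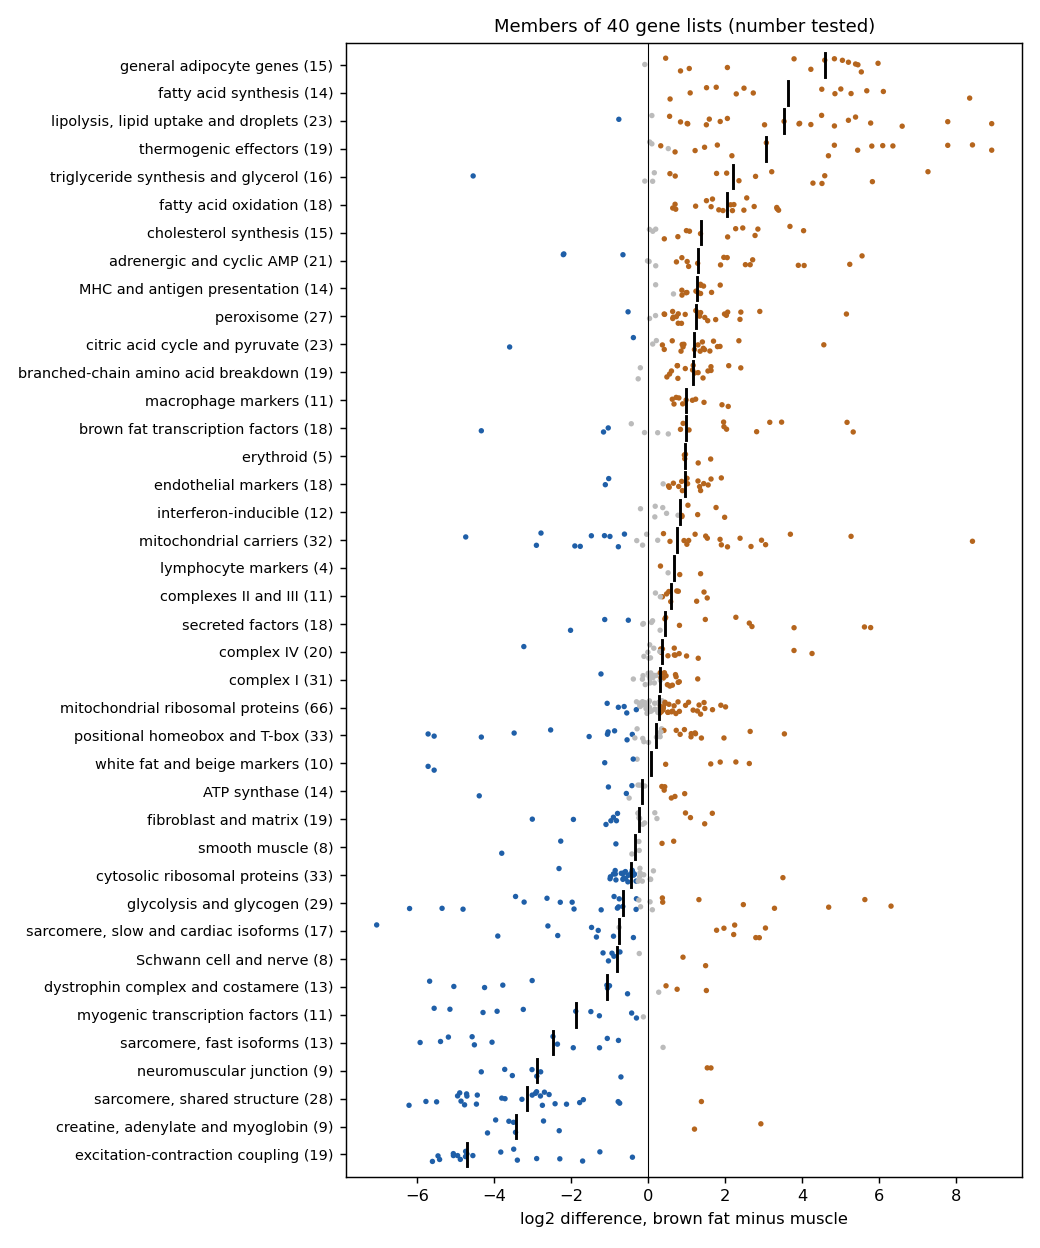
Difference of every tested member of 40 gene lists (points, orange higher in brown fat, blue higher in muscle, grey not past the threshold) with the list median (black bar) on the log2 scale, brown fat minus muscle. Lists run from the general adipocyte genes with a median of 4.59 to excitation-contraction coupling with -4.70, and the respiratory chain and ribosomal lists sit near 0.

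The median differences of the respiratory chain lists were small. Complex I was bright, with median log2 signals of 13.73 and 13.73 in brown fat and 13.31 and 13.35 in muscle. So were complexes II and III, at 13.99 and 14.03 in brown fat and 13.30 and 13.33 in muscle. Whether differences are compressed at such signals was not tested. The median difference was 0.32 for complex I (14 of 31 tested genes higher in brown fat, 1 higher in muscle), 0.59 for complexes II and III (9 of 11 and 0), 0.36 for complex IV (12 of 20 and 1) and -0.14 for ATP synthase (6 of 14 and 4). The complex I median turned to the other sign under median scaling in place of quantile normalization, under which the median of all genes moved to -0.248. Within complex I the flavoprotein gene Ndufv1 was at 14.50 and 14.57 in brown fat and 13.83 and 13.80 in muscle (difference 0.72 ± 0.11) and Ndufab1, the acyl carrier protein, was at least 1.59-fold higher in brown fat. The cytochrome c1 gene Cyc1 differed by 1.26 ± 0.11 and the succinate dehydrogenase gene Sdha by 1.54 ± 0.17.

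Inside these complexes single subunits differed far more than the rest. Cox6a1, the widely expressed form of a cytochrome c oxidase subunit, was at 14.83 and 14.87 in brown fat and 10.51 and 10.67 in muscle (difference 4.26 ± 0.12). Its muscle and heart form Cox6a2 was at 11.40 and 11.70 in brown fat and 14.84 and 14.70 in muscle (difference -3.22 ± 0.14), and at 5.22 in cold brown fat replicate 1. Cox8a, the widely expressed form of another subunit, was at 14.62 and 14.65 in brown fat and 10.78 and 10.90 in muscle (difference 3.79 ± 0.11), whereas its muscle form Cox8b was level as given above. So the common forms of both subunits were far brighter in brown fat, and of the muscle forms only Cox6a2 was brighter in muscle beyond the threshold.

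Atp5g1 stood apart within ATP synthase. It is 1 of 3 genes for the same c subunit of the membrane rotor, and its log2 signals were 10.15 and 10.64 in brown fat and 14.71 and 14.85 in muscle (difference -4.38 ± 0.18). On cold brown fat replicate 1 it was at 8.50. The other c subunit genes were Atp5g2 at a difference of -0.42 ± 0.13, a call lost without brown fat replicate 1 or either muscle array, and Atp5g3 at -0.56 ± 0.11. Atpif1, the inhibitor of the enzyme, was also higher in muscle (-1.03). The remaining subunits lay between -0.49 and 0.95.

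Mitochondrial carriers split in both directions, with 18 of 32 tested genes higher in brown fat and 10 higher in muscle (median 0.76). Slc25a5, one adenine nucleotide translocase, was at 13.98 and 13.86 in brown fat and 11.17 and 11.32 in muscle (difference 2.68 ± 0.12). Slc25a4, the translocase of heart and muscle, was at 8.26 and 7.90 in brown fat and 10.83 and 11.13 in muscle (difference -2.90 ± 0.17). The 2 translocases thus differed by similar amounts in opposite directions. Slc25a12, an aspartate and glutamate carrier of the malate-aspartate shuttle, was the carrier highest in muscle, at 7.12 and 7.26 in brown fat and 11.89 and 11.95 in muscle (difference -4.73 ± 0.11). Slc25a3, the phosphate carrier, was also higher in muscle (-0.99), and Slc25a17, a peroxisomal carrier, was higher in brown fat (2.95).

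The genes with the largest differences towards muscle included several for contractile, calcium-handling and glycogen proteins. The muscle-rich enzyme Nmrk2, which phosphorylates nicotinamide riboside on the way to NAD, was at 5.48 and 5.40 in brown fat and 11.79 and 11.96 in muscle and at least 82.2-fold higher in muscle. Pygm, the muscle glycogen phosphorylase, was at 7.47 and 7.93 in brown fat and 13.89 and 13.89 in muscle (difference -6.19 ± 0.17). Casq1, the calcium store of fast fibres, was at 8.31 and 8.74 in brown fat and 14.46 and 14.42 in muscle (difference -5.91 ± 0.16). Actc1, cardiac actin, had the largest difference towards muscle, -7.04 ± 0.55, but its brown fat signals of 7.27 and 5.39 were far apart.

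Other members of this set were Mybph (-6.33), a myosin-binding protein, Trim54 (-6.20), a ubiquitin ligase of the sarcomere, Ank1 (-6.16, with other probes at -5.69 to -0.35), whose small form anchors the reticulum, and Smox (-6.09), spermine oxidase. Asb2 (-5.81) and Asb14 (-5.79), of a family of ubiquitin ligase adaptors, the PDZ and LIM proteins Pdlim3 (-5.76) and Pdlim7 (-5.49), the splicing regulator Rbfox1 (-5.56), the kinase Camk2a (-5.50) and Sgca (-5.67), alpha-sarcoglycan, followed. Each was higher on both muscle arrays than on both brown fat arrays. Cold brown fat replicate 1 had Pygm at 5.16, Casq1 at 5.32 and Trim54 at 5.04.

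Of 28 tested genes of shared sarcomere structure 27 were higher in muscle (median -3.14), including the M-line proteins Myom1 (-4.94) and Myom2 (-4.85), the thin filament cap Tmod4 (-4.89), Nrap (-4.71) and desmin Des (-3.80). The exception was Pdlim5 (1.39), whose second probe gave -2.11. Fast-fibre isoforms were higher in muscle in 12 of 13 tested genes (median -2.47). Myh4, the fast IIb myosin, was at 8.96 and 9.18 in brown fat and 14.41 and 14.51 in muscle (difference -5.38 ± 0.13), and the fast light chain gene Myl1 differed by -5.18 ± 0.18. Myh2, the IIa myosin, differed by -2.46 ± 0.28 and the calcium pump gene Atp2a1 by only -0.77 ± 0.12, with levels of 13.73 and 13.94 in the brown fat samples. On cold brown fat replicate 1 Atp2a1 was at 6.47. Against muscle at room temperature, that single array gave the fast-fibre list a median of -8.61, compared with -2.50 for the room-temperature arrays on the same scale.

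The slow-fibre list was split. Of 17 tested genes of slow and cardiac isoforms 7 were higher in brown fat and 9 in muscle, and in a fit of all 8 arrays 2 and 8 were. The slow regulatory light chain gene Myl2 was at 11.66 and 11.63 in brown fat and 8.93 and 8.26 in muscle (difference 3.05 ± 0.21). Tnnc1, slow troponin C, was at 10.74 and 10.72 in brown fat and 7.29 and 8.39 in muscle (difference 2.89 ± 0.33), and Tnni1, slow troponin I, at 8.90 and 8.86 in brown fat and 5.75 and 6.40 in muscle (difference 2.80 ± 0.21). These slow-fibre transcripts were thus higher in both brown fat samples than in quadriceps, and so were Myl3 (2.25) and Tnnt1 (2.23). On cold brown fat replicate 1 they were at or near background, with Myl2 at 5.18, Tnnc1 at 6.23 and Tnni1 at 5.20, while replicate 2 had them at 12.07, 11.19 and 9.49. These 5 genes did not pass the threshold between tissues on the cold arrays, where their differences lay between -0.36 and 0.99. The slow calcium pump gene Atp2a2, also widely expressed, was at 12.83 and 12.50 in brown fat and 10.69 and 10.69 in muscle and stayed at 12.39 on cold brown fat replicate 1.

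Of 19 tested genes of excitation-contraction coupling 14 were above background on both brown fat arrays and 19 on both muscle arrays. All 19 were higher in muscle, with a median of -4.70. They included Jsrp1 (-5.41), Stac3 (-5.05) and the channel subunits Cacng1 (-5.59) and Cacna2d1 (-4.94), parts of the complex that links depolarisation to calcium release, and Hrc (-4.87), a calcium-binding protein of the reticulum. At the neuromuscular junction 7 of 9 tested genes were higher in muscle (median -2.89), though a stricter detection filter left only the 2 genes higher in brown fat. Rapsn, which clusters acetylcholine receptors, differed by -4.33 ± 0.13, and the receptor subunit gene Chrne was at least 10.6-fold and acetylcholinesterase Ache at least 5.42-fold higher in muscle. The heparan sulphate proteoglycan agrin, Agrn, and utrophin, Utrn, which are widely expressed, were higher in brown fat (1.54 and 1.64). In the dystrophin complex 9 of 13 tested genes were higher in muscle, among them Dmd itself (-3.01) and caveolin Cav3 (at least 10.7-fold), while Cavin1, a caveolar coat protein common in adipocytes, was higher in brown fat (1.52).

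Of 11 tested muscle transcription factors 10 were higher in muscle and none in brown fat (median -1.87). All 11 were above background on both muscle arrays, but only 6 on both brown fat arrays. The rest entered the test through muscle alone, so their direction was largely set by the filter. Myf6, a muscle determination factor, was at 6.41 and 7.02 in brown fat and 11.80 and 11.91 in muscle (difference -5.14 ± 0.20). Mef2c differed by -3.92 ± 0.11, Vgll2 by -4.28 ± 0.20 and Lbx1, a factor of migrating limb muscle precursors, by -3.24 ± 0.12. Another 12 listed factors could not be tested for want of a probe above background.

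Glycolysis and glycogen genes were divided, with 17 of 29 tested genes higher in muscle, 8 higher in brown fat and a median of -0.65. The muscle forms Eno3 (-3.44) and Pgam2 (-3.21) and the phosphorylase kinase subunits Phkg1 (-5.34), Phka1 (-4.80) and Phkb (-2.62) were higher in muscle. Phosphofructokinase was divided by isoform. Pfkl, the liver form, was at 14.23 and 14.18 in brown fat and 8.65 and 8.50 in muscle (difference 5.63 ± 0.11), and Pfkm, the muscle form, at 12.36 and 12.43 in brown fat and 14.66 and 14.68 in muscle (difference -2.28 ± 0.11, with a second probe at -4.97). Pfkp, the platelet form, was higher in brown fat by 4.69. The lactate dehydrogenase gene Ldhb differed by 2.48 ± 0.14 and Ldha by -0.30 ± 0.11. Gbe1, the glycogen branching enzyme, was dim in brown fat and not above background in muscle.

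Of 9 tested genes of creatine, adenylate and oxygen buffering 7 were higher in muscle (median -3.44). Ckm differed by -3.61 ± 0.17, mitochondrial Ckmt2 by -4.16 ± 0.15, adenylate kinase Ak1 by -3.95 ± 0.11 and myoglobin Mb by -3.44 ± 0.11. The creatine transporter Slc6a8 (-2.30) and Gamt (-2.71), which makes creatine, were also higher in muscle. Ckb, the brain form of creatine kinase, was at 12.66 and 12.31 in brown fat and 9.48 and 9.62 in muscle and higher in brown fat (difference 2.93 ± 0.15). On cold brown fat replicate 1, Ckmt2 was at 5.13 and Ak1 at 9.84.

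In 31 pairs of related genes, 20 had both members tested. In 8 of these the members passed the threshold in opposite directions, namely Pygl and Pygm, Pfkl and Pfkm, Cox6a1 and Cox6a2, Ckb and Ckm, Slc25a5 and Slc25a4, Tnnc1 and Tnnc2, Ldhb and Ldha, and Atp2a2 and Atp2a1. In 6 both passed in the same direction. Over all genes tested, 34.9% were higher in brown fat and 35.5% in muscle, so unrelated genes would often fall in opposite directions too. The count of pairs was not tested against these shares. The call for Ldha rested on a small difference and was lost when any 1 array was left out. In a fit of all 8 arrays the calls for Ckm, Cox6a2, Tnnc2, Tnnc1 and Atp2a1 were lost too, as were those for Myl2, Tnni1, Myl3, Tnnt1, Myh2, Eno3 and Pgam2. The differences stayed about as large there, such as 3.11 for Myl2 (adjusted p = 0.250) and -3.61 for Ckm (adjusted p = 0.0867). The gap between the differences of the 2 members was widest for glycogen phosphorylase. On cold brown fat replicate 1 Tnnc1 and Tnnc2 were both near background and below their signals in muscle at room temperature. Their opposite directions were therefore not seen on that array.

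**Figure D4:**
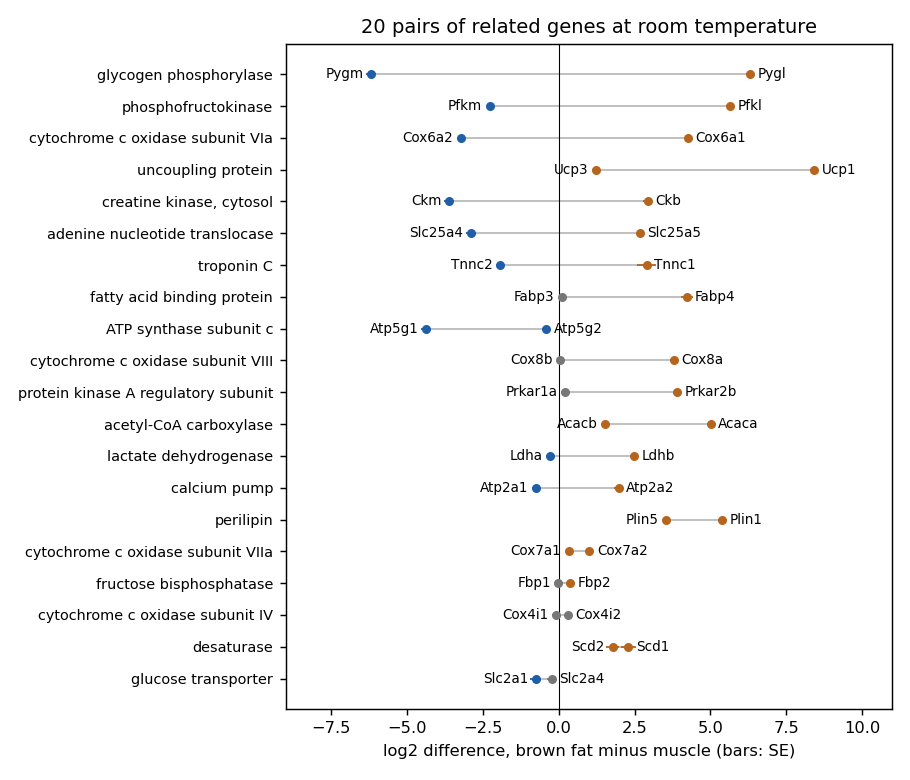
Differences of both members of 20 pairs of related genes on the log2 scale, brown fat minus muscle, with SE (bars, mostly hidden by the points). Orange and blue points passed the threshold and grey points did not, and glycogen phosphorylase shows the widest gap, from -6.19 for Pygm to 6.31 for Pygl.

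Hox genes, which mark position along the body axis, were ordered by paralog number. Genes of low number are expressed from the neck region down and those of high number only further back. Of the 20 tested, 9 belong to groups 2 to 5, of which 7 were higher in brown fat and 1 in muscle (median 1.12). None of the 5 genes in groups 6 to 8 passed the threshold. All 6 in groups 9 to 11 were higher in muscle (median -1.29). Most of these 6 were not above background in brown fat and entered the test through muscle alone. Their direction was therefore largely set by the detection filter. Some genes of groups 2 to 5 likewise entered through 1 tissue alone. Several of the genes counted at both ends of this order lay near background in both tissues, where the size of a difference is uncertain. Across the 20 genes Spearman's rho between group number and difference was -0.75, as a description, since the points share the 4 arrays and lie in 4 gene clusters. The detection filter bears on this value too.

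Hoxa5 was at 11.42 and 11.48 in brown fat and 7.84 and 7.97 in muscle (difference 3.54 ± 0.11), and Hoxa4 at 8.39 and 8.59 in brown fat and 5.87 and 5.80 in muscle (difference 2.65 ± 0.12). Hoxc9 was at 5.32 and 5.0 in brown fat and 10.80 and 10.94 in muscle, at least 41-fold higher in muscle, and Hoxc10 was at least 9.08-fold higher. The groups did not overlap for any of these 4 genes, as for 86% of all genes tested. The cold arrays gave medians of 0.51, -0.25 and -1.63 for the same 3 ranges of group number. Of other regional factors, Tbx1 was at least 39.4-fold and En1 (-2.53) also higher in muscle, while Zic1, at 7.75 and 7.71 in brown fat and 5.48 and 6.03 in muscle, and Tbx3 (1.12) were higher in brown fat.

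**Figure D5:**
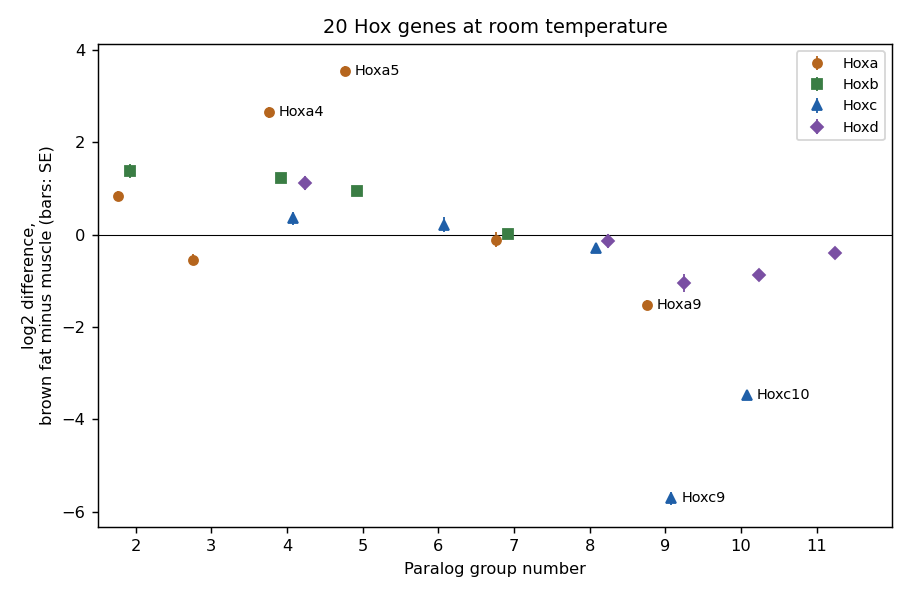
Difference of 20 Hox genes (log2 scale, brown fat minus muscle, bars are SE) against paralog group number, with markers for the 4 clusters. Groups 2 to 5 lie mostly above 0, groups 6 to 8 near 0 and groups 9 to 11 below 0, down to Hoxc9 at -5.71.

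Receptors and messengers of the sympathetic response were higher in brown fat in 15 of 21 tested genes (median 1.29). The phosphodiesterase gene Pde3b, which ends cyclic AMP signals in adipocytes, was at 10.91 and 11.07 in brown fat and 5.48 and 5.38 in muscle, at least 41.8-fold higher. The adenylyl cyclase gene Adcy3 was at least 26.6-fold higher, though a second probe gave 0.75. Prkar2b, a regulatory subunit of protein kinase A, differed by 3.90 ± 0.12, and its relative Prkar2a was higher in muscle (at least 3.57-fold). Hcar1, the lactate receptor of adipocytes, was at least 11.5-fold higher in brown fat. Among secreted factors 10 of 18 tested genes were higher in brown fat and 3 in muscle (median 0.45). Nrg4, a ligand released by brown fat, was at 10.95 and 10.99 in brown fat and 5.26 and 5.44 in muscle, at least 41.2-fold higher. Apoe differed by 2.70 ± 0.16, Lep, leptin, by 2.63 ± 0.28 and Igf1 by 0.82 ± 0.20, a call lost without brown fat replicate 1 or muscle replicate 1, while Bmp4 was higher in muscle (-2.01).

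Cholesterol synthesis was higher in brown fat in 12 of 15 tested genes and in muscle in none (median 1.37), with Lss at least 12.5-fold, Sqle by 3.69, Cyp51 by 2.85 and Hmgcs1 by 2.28. Their regulator Srebf2 differed by 1.37 ± 0.12. Cytosolic ribosomal proteins were higher in muscle in 23 of 33 tested genes, by small amounts (median -0.44), such as Rpl13 (-0.97) and Rpl10 (-0.90). Members outside this range were Rps19, at least 8.87-fold higher in brown fat, and Rplp0 (-2.31), both read by dim probes with log2 signals under 9 on all 4 arrays. Probes of ribosomal proteins may also read processed pseudogenes, and are uncertain for that reason. Mitochondrial ribosomal proteins had 31 of 66 tested genes higher in brown fat and 5 in muscle, with a median of 0.29 that was negative under median scaling. Mrps5 (2.02, with a second probe at 1.07) and Mrps35 (1.89) were higher in brown fat and Mrpl23 (-1.06) in muscle. Mrps5 was at 1.19 and 0.98 without brown fat replicate 1 and 2. The brightest probe was picked anew in each of these fits, and both values lie near that of the second probe.

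Markers of other cell types differed less than adipocyte or muscle genes. Endothelial markers were higher in brown fat in 15 of 18 genes (median 0.95), with Pecam1 at 10.41 and 10.31 in brown fat and 9.09 and 8.50 in muscle (difference 1.56 ± 0.20) and Cldn5 differing by 1.45 ± 0.14, while Vwf (-1.02) and Plvap (-1.11) were higher in muscle. All 11 tested macrophage markers were higher in brown fat (median 0.99), including the complement genes C1qa (0.90), C1qb (1.24) and C1qc (1.46) and Adgre1 (0.80). Hba-a1, alpha globin, was higher in brown fat by 1.30, as were the other 4 tested erythroid genes. Of 15 lymphocyte markers 4 were above background in a tissue, led by Cd74 (1.37), which antigen-presenting cells share. Fibroblast and matrix genes were mixed, with 4 of 19 higher in brown fat and 7 in muscle. The basement membrane collagen gene Col4a1 was higher in brown fat (1.10), and Dcn, decorin (-0.96), and the tendon gene Tnmd (at least 7.25-fold) were higher in muscle. Schwann cell markers were higher in muscle in 5 of 8 genes, with Sox10 at -1.17 and Mbp at -0.93.

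Genes of antigen presentation were higher in brown fat in 12 of 14 tested genes (median 1.27), with B2m, the light chain of class I molecules, at 14.03 and 14.18 in brown fat and 12.94 and 12.66 in muscle (difference 1.30 ± 0.14), and H2-K1 differing by 1.65 ± 0.13. Interferon-inducible genes were higher in 6 of 12 and in muscle in none (median 0.83). The chemokine gene Cxcl9 was at 10.53 and 9.67 in brown fat and 8.31 and 7.91 in muscle (difference 1.99 ± 0.29) and Rsad2, an antiviral protein, at 11.61 and 10.40 in brown fat and 9.62 and 8.86 in muscle (difference 1.77 ± 0.41, a call lost without muscle replicate 2 and a difference of 1.17 without brown fat replicate 1). The replicates of both tissues were far apart for Cxcl9 and Rsad2. Muscle replicate 2 was below muscle replicate 1 in all 12 interferon-inducible and all 14 antigen presentation genes. Brown fat replicate 2 was likewise below brown fat replicate 1 for Cxcl9, Rsad2 and the median signal of the interferon-inducible list, but not for B2m. On the cold arrays the median differences were 0.23 for interferon-inducible genes and 0.62 for antigen presentation.

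The stretch from 250 bases before to 50 after the annotated start, as RefSeq gives it for mouse assembly GRCm38.p6, was searched on both strands for 9 motifs. Such a stretch was at hand for 6794 of the tested genes, for 200 of the 306 genes over 8-fold higher in muscle and for 172 of the 258 over 8-fold higher in brown fat. The E-box CAGCTG, read by muscle determination factors, was in 39% of the muscle genes, 17.4% of the brown fat genes, 18.4% of the tested genes and 18.3% of all 27025 genes with such a stretch. The MEF2 motif (CTA and TAG with 4 bases between) was in 10.5%, 2.91%, 3.71% and 4.23% of these. The MCAT motif CATTCC was in 23%, 12.8%, 14.2% and 16.6%, and the CArG box in 5%, 1.16%, 1.77% and 1.81%. Of motifs linked to adipocytes, the C/EBP motif TTGCNNAA was in 9.88% of the brown fat genes against 10.6% of the tested genes, TCAAGGTCA in 0% against 0.368% and a repeat of AGGTCA with 1 base between in 0% of both. The EBF motif (TCCC and GGGA with 2 bases between) was in 2.91% against 1.31%, which is 5 of the 172 genes. In the muscle genes the C/EBP motif was in 14.5%, the EBF motif in 2%, and TCAAGGTCA and the AGGTCA repeat in 0%. TATAAA was in 17% of the muscle genes, 11% of the brown fat genes and 9.8% of the tested genes. These shares are descriptions of letters in a window, with no test, and the genes were chosen for their difference.

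Among the 25 genes furthest towards muscle, 3 hold both an E-box and an MCAT motif, and they are shown with Actc1, which had the largest difference towards muscle and holds a CArG box, and with Ucp1, which holds none of the 4 muscle motifs. Each is printed 5′ to 3′ on the strand of the gene, and capitals mark these motifs on either strand. Mybph is chr1:134193198-134193497 on the plus strand, Trim54 chr5:31116362-31116661 (plus), Pdlim3 chr8:45885237-45885536 (plus), Actc1 chr2:114052826-114053125 (minus) and Ucp1 chr8:83290098-83290397 (plus). In Mybph the E-box and MCAT letters start at -79 and -73 from the start site and touch, and none of the other matches shown overlap.
Mybph: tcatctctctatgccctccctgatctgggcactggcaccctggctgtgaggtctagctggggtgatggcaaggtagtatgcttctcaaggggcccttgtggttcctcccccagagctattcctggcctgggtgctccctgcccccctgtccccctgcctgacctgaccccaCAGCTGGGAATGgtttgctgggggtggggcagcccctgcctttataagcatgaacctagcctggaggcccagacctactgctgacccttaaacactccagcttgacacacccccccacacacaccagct
Trim54: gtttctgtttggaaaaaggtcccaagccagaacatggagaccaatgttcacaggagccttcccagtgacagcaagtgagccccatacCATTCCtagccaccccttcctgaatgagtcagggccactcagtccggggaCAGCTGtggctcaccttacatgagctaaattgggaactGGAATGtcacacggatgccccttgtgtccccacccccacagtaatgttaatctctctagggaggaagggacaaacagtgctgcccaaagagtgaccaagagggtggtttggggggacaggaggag
Pdlim3: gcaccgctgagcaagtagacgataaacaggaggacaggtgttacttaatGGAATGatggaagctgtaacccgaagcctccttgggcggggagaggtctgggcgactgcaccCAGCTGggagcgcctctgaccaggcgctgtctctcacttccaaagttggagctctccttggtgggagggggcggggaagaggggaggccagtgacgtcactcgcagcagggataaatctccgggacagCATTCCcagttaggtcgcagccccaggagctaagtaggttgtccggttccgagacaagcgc
Actc1: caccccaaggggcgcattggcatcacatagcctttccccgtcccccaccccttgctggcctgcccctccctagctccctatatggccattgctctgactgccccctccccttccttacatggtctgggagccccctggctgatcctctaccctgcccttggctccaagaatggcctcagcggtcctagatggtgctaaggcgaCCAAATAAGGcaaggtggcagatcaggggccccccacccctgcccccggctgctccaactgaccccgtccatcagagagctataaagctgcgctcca
Ucp1: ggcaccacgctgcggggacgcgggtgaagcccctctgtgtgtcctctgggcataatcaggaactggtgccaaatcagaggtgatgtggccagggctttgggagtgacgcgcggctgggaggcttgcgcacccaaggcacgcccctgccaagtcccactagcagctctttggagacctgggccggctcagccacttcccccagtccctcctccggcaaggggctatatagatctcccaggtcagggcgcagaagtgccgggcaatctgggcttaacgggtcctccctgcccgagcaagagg

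The tissue comparison was repeated on the 4 cold arrays with the same probes. There 5654 genes passed the threshold (58.2% of those tested). Of the 6841 genes called at room temperature, 6400 had the same sign in the cold and 4905 passed there in the same direction, while 52 passed in the opposite direction. The cold arrays are set apart by temperature as well as by the muscle transcripts in brown fat replicate 2 and the brown fat transcripts in muscle replicate 2, where Ucp1 was at 14.45. The cold difference of Ucp1 was 2.76 and did not pass the threshold. Cold differences of genes described above were 3.29 for Hoxa5, 4.52 for Pfkl (compared with 5.63 at room temperature), -5.40 for Hoxc9 and -6.86 for Pygm.

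Cold brown fat replicate 1, which was low in muscle transcripts (6 of 13 tested fast-fibre genes above background, compared with all 13 on both room-temperature brown fat arrays), was also set against muscle at room temperature, a single array with no test and with temperature changed as well. The median difference of fatty acid synthesis was 3.34, compared with 3.64 for the room-temperature arrays on the same 8-array scale. It was 1.96 against 2.04 for fatty acid oxidation, 0.40 against 0.29 for complex I and 0.29 against -0.14 for ATP synthase. Larger shifts were seen for fast isoforms, at -8.61 against -2.50, for thermogenic effectors, at 5.25 against 2.92, and for shared sarcomere structure, at -5.40 against -3.08. Interferon-inducible genes were at -0.91 against 0.84. Excitation-contraction coupling, already near background in many brown fat signals, gave -5.26 against -4.72. Cold brown fat replicate 2, which held muscle transcripts, gave 5.58 for thermogenic effectors, -1.70 for interferon-inducible genes and 0.22 for ATP synthase. On that array fast isoforms were at -2.50, shared sarcomere structure at -2.84 and excitation-contraction coupling at -4.39. The shifts of fast isoforms and shared structure were thus seen on replicate 1 only. Those of thermogenic effectors, interferon-inducible genes and ATP synthase were seen on both.

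Between the temperatures, the tissue difference itself was tested as an interaction in a fit of all 8 arrays. Over all genes tested, 396 passed (4.08%), but that count ran from 15 to 809 when single arrays were left out. The genes named above that passed are given in the closing section.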

How the data were processed

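Per the labels' protocols, TRIzol extracts of brown fat and quadriceps were labelled with biotin during amplification and run on Illumina bead arrays. The deposited intensity values are linear bead signals that, by their range, were neither background subtracted nor scaled. The deposited detection score is highest, at 1, for the brightest probes, and was taken as 1 minus a p-value for detection. The authors' processed intensity values hold numbers below 0 and share a minimum and maximum on all arrays. How the authors made them is not given in the sources used here, so they served as an alternative.

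In R 4.3.3 with limma 3.58.1, signals of the 4 room-temperature arrays were background corrected (normexp, negative controls inferred from the detection p), given an offset of 16, quantile normalized and logged (log2). Testing needed a detection p under 0.05 on both arrays of at least 1 tissue, and the brightest probe stood for its gene. Symbols came from the platform annotation, in which 20980 probes have 1 symbol, 1 has several and 3626 have none, updated by gene identifier through a mouse RefSeq table (20964 matched). The 2 tissues were compared with lmFit and eBayes (2 residual degrees of freedom, to which moderation added 4.41), with Benjamini-Hochberg adjustment over all genes tested. With 2 arrays per group, precision is limited by that number. The fit was tested on simulated data. The cold arrays were fitted apart with the same probes, and the interaction was tested in a fit of all 8 arrays. Where no probe of a gene was above background in the dimmer tissue, the fold is a bound against the higher of its signal and the lowest signal of a probe above background.

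The 40 gene lists, the pairs of related genes and the tests were chosen with earlier results of these data known. The text draws its genes from the 25 largest differences in each direction, up to 8 members of a list past the threshold in each direction and up to 3 not past it, both members of each pair, and Zbtb16. Other Hox genes enter only as counts. The names Kng2 and Prdm16, without a test, were added after values were seen. Alternatives were the fit of all 8 arrays, median scaling, no background correction, the authors' processed values, an offset of 50, a stricter and no detection filter, the median of a gene's probes, a trended robust prior, leaving out each array, a replicate block and a test against a 2-fold difference. Leaving out single arrays for the interaction, its other settings and the use of cold brown fat replicate 1 or 2 alone were chosen after seeing the data.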

Additional observations from a re-analysis of the deposited data

Results flagged for a closer look

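For 13 of the genes named in the report, the difference between brown fat and muscle itself differed between the cold and room temperature (interaction in a limma fit of all 8 arrays, adjusted p under 0.05 over all genes tested, 2 arrays per group). That is 6.07% of the 214 named genes tested, beside 4.08% of all genes, a share close to the background. All values below come from that fit on the log2 scale, and a change is the tissue difference in the cold minus that at room temperature.

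It was positive for 3 genes. Ppargc1a went from 0.53 at room temperature to 2.88 in the cold, a change of 2.35 (adjusted p = 0.0269). For Sox10 the change was 1.3 (adjusted p = 0.0145) and for Bmp4 1.15 (adjusted p = 0.0362), both of them genes higher in muscle at room temperature.

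It was negative for the other 10. Ucp3 went from 1.26 to -1.69, so its sign turned (change of -2.95, adjusted p = 0.00944). Lep went from 2.67 to -0.86 (change of -3.53, adjusted p = 0.0161). The change was -3.76 for Angptl4 (adjusted p = 0.0384), -2.08 for Hoxa4 (adjusted p = 0.00677) and -1.97 for Irf4 (adjusted p = 0.0492). It was -1.14 for Pdk4 and -1.09 for Cebpb (adjusted p = 0.0458 and 0.0266). Hcar1, Cebpa and Acacb were not above background in muscle at room temperature, so their fitted changes of -4.08, -3.77 and -1.07 (adjusted p = 0.0346, 0.0424 and 0.0257) rest on a tissue difference known there only as a bound. The part of brown fat transcripts in muscle cold replicate 2, where Ucp1 was at 14.45, was not tested.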

How the results depend on the processing

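With other settings the count of genes higher in brown fat lay between 3265 and 3428 and that of genes higher in muscle between 3322 and 3533, apart from median scaling, the strict detection filter, the test against a 2-fold difference and the fits that left out an array. Median scaling gave 1709 and 2846 genes, with the median of all genes at -0.248 in place of -0.00854 and 37.5% of calls towards brown fat in place of 49.6%, and 2104 calls shared with the cold arrays in place of 4905. A detection p under 0.01 on all 4 arrays left 6388 genes to test, of which 2227 were higher in brown fat and 2388 in muscle. The test against a 2-fold difference gave 1068 and 994. Leaving out 1 array gave 2836 to 3369 genes higher in brown fat, 2876 to 3217 higher in muscle and 4424 to 4717 calls shared with the cold arrays, and 2603 and 2584 calls were kept in all 4 such fits. The interaction count of 396 was 100 with median scaling, 180 with the authors' processed values and 15 to 809 when each of the 8 arrays was left out. The lowest counts came without brown fat replicate 2 (15) or 1 (16), or without muscle replicate 2 (26) or 1 (34), at room temperature. It was 94 without cold brown fat replicate 1, 224 without muscle cold replicate 2 and 809 without muscle cold replicate 1. The cause of these shifts was not tested beyond the smaller number of genes or arrays. Across genes, same-numbered samples did not deviate together (correlation of -0.032), so the replicate numbers were not taken as pairs. The median signal of the interferon-inducible list was nonetheless lower on replicate 2 in both tissues at room temperature. Whether same-numbered samples share mice was not tested. With the replicate block 3375 and 3407 genes passed and 4546 were shared with the cold arrays. Of 209 called genes named in the text, 184 kept their call and direction in every setting that tested them, of 14 that give gene values. The strict detection filter left some of them untested, Cidea and Ucp1 among these. Those lost elsewhere than stated in the report were Col4a1, C1qa, Adgre1, Ndufv1, Cpt1b, Mylk and Igf1 with median scaling, Vldlr with the median of a gene's probes, and Ldha with the authors' values and with the block. Ppargc1a alone gained a call, under the 3 settings the report names. Pdlim5 turned to -0.36 with the median of a gene's probes. Values that changed sign without a call were Idh3a (-0.17), Fabp3 (-0.40) and Cox8b (-0.48) with median scaling, while Cox8b ran from -0.0212 to 0.118 when 1 array was left out and was lowest without brown fat replicate 2. Medians of 6 of the 40 lists changed sign under some setting, those of complex I, mitochondrial ribosomal proteins, the neuromuscular junction, positional factors, slow sarcomere isoforms and white fat markers. Below a log2 signal of 5.51 to 5.63 a level cannot be told from background.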

Other observations

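Of 10 tested genes listed as markers of white fat and of beige cells, 5 were higher in brown fat and 4 in muscle (median 0.09, a sign that turned under other settings). The fatty acid transporter gene Slc27a1, for one, was at 11.90 and 11.82 in brown fat and 10.12 and 9.84 in muscle (difference 1.88 ± 0.13). Smooth muscle markers were higher in brown fat in 2 of 8 genes and in muscle in 3 (median -0.33), with the kinase gene Mylk at 0.67 and smoothelin, Smtn, at -2.26.

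Nat8l and Poln, a DNA polymerase gene, were both among the 25 genes furthest towards brown fat, and they are neighbours with no protein-coding gene between them in assembly GRCm38.p6. The log2 signals were 11.49 and 11.29 in brown fat and 5.12 and 5.25 in muscle for Nat8l and 11.72 and 11.45 in brown fat and 5.09 and 5.37 in muscle for Poln. It was the only such pair, with at most 2 coding genes between, within either set of 25.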
